A study of Mus musculus with 6 samples.

Results

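Amino acid catabolism and the urea cycle were followed in mouse liver through 47 genes: the transaminases, the enzymes and carriers of the urea cycle, and the enzymes that break down glutamine and glutamate, histidine, the aromatic and branched-chain amino acids, sulphur amino acids, glycine, proline and lysine. The members were chosen by name, as probe sets annotated with that 1 symbol, taking the probe set with the highest mean over all arrays where a gene had more than 1. A probe set was found for 46 of the 47 among 22180 genes so annotated; Gls2, the liver glutaminase, was not analysed here. Of these 46, 45 lay in the upper 50% of mean signal and were tested among 11090 genes, and Bhmt did not.

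Liver RNA was measured on 1 whole-transcript array per mouse in 3 male mice lacking Gpr146, a G protein-coupled receptor, in the whole body (KO), and in 3 male wild-type (WT) littermates. Both groups were on the C57BL/6J background, were 24 weeks old and ate chow. All mice went 16 hours without food and were then fed again for 6 hours, after which the liver was taken. The receptor was missing from the whole body, so a difference in liver RNA need not arise in the liver. The livers are bulk tissue, in which fewer cells of a type and less RNA per cell cannot be told apart.

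The liver is the main site where surplus amino acids are broken down. Transaminases move their amino groups mainly onto 2-oxoglutarate and oxaloacetate, glutamate dehydrogenase releases ammonium, and the urea cycle, which is most active in hepatocytes around the portal vein, turns it into urea. The carbon skeletons feed gluconeogenesis, and many of these genes are known to be raised by glucagon and glucocorticoids during fasting and lowered after feeding. Hepatocytes around the central vein take up what ammonium remains and fix it as glutamine.

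The array values are log2 signals, and every difference below is KO minus WT on that scale. Array medians lay between 2.67 and 2.73, and pairs of arrays had correlations of 0.983 to 0.988. Gpr146 itself measured 4.61, 4.28 and 3.87 in KO mice 1 to 3, against 5.96, 5.56 and 5.65 in WT mice 1 to 3, and it did not pass the threshold (limma adjusted p = 0.0702). Alb, the albumin gene that marks hepatocytes, averaged 11.91 ± 0.01 in KO and 11.92 ± 0.02 in WT livers (SD, n = 3 each), and the 5 hepatocyte markers analysed had a median difference of 0.0085. Markers of other cells were low or did not separate the genotypes, except that pancreatic acinar markers stood apart in WT mouse 1. Their mean over 6 markers, of which 2 passed the signal filter, was 2.58, 2.60 and 2.45 in the KO mice, against 3.47, 2.62 and 2.56 in the WT mice. Kupffer cell markers also varied between mice within each genotype. Averaged over 6 of them after subtracting each gene's mean, KO mice were at -0.21, -0.0023 and 0.40. The WT mice were at 0.54, -0.41 and -0.32.

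Of the 45 members tested, 0 passed the threshold of an adjusted p of 0.05 in limma, where 0.0361% of all tested genes passed. At an unadjusted p under 0.05 there was 1 member, Got1, which is 2.22% of the members against 9.13% of all tested genes. The median difference of the members was -0.04, beside 0.03 for all tested genes. It was negative in 24 members and positive in 21, where 42.3% of all tested genes were negative. For 40 of the 45 members the 95% interval of the difference lay within 0.5 of 0, a fold of 1.41, which held for 79.0% of all tested genes. The exceptions were Got1, Ass1, Hal, Cth and Gldc. The members had a higher mean signal than all tested genes, and intervals were not compared at equal signal. A difference of at least 0.5 in size was measured in Got1 alone among the members, and in 2.28% of all tested genes.

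**Figure D1:**
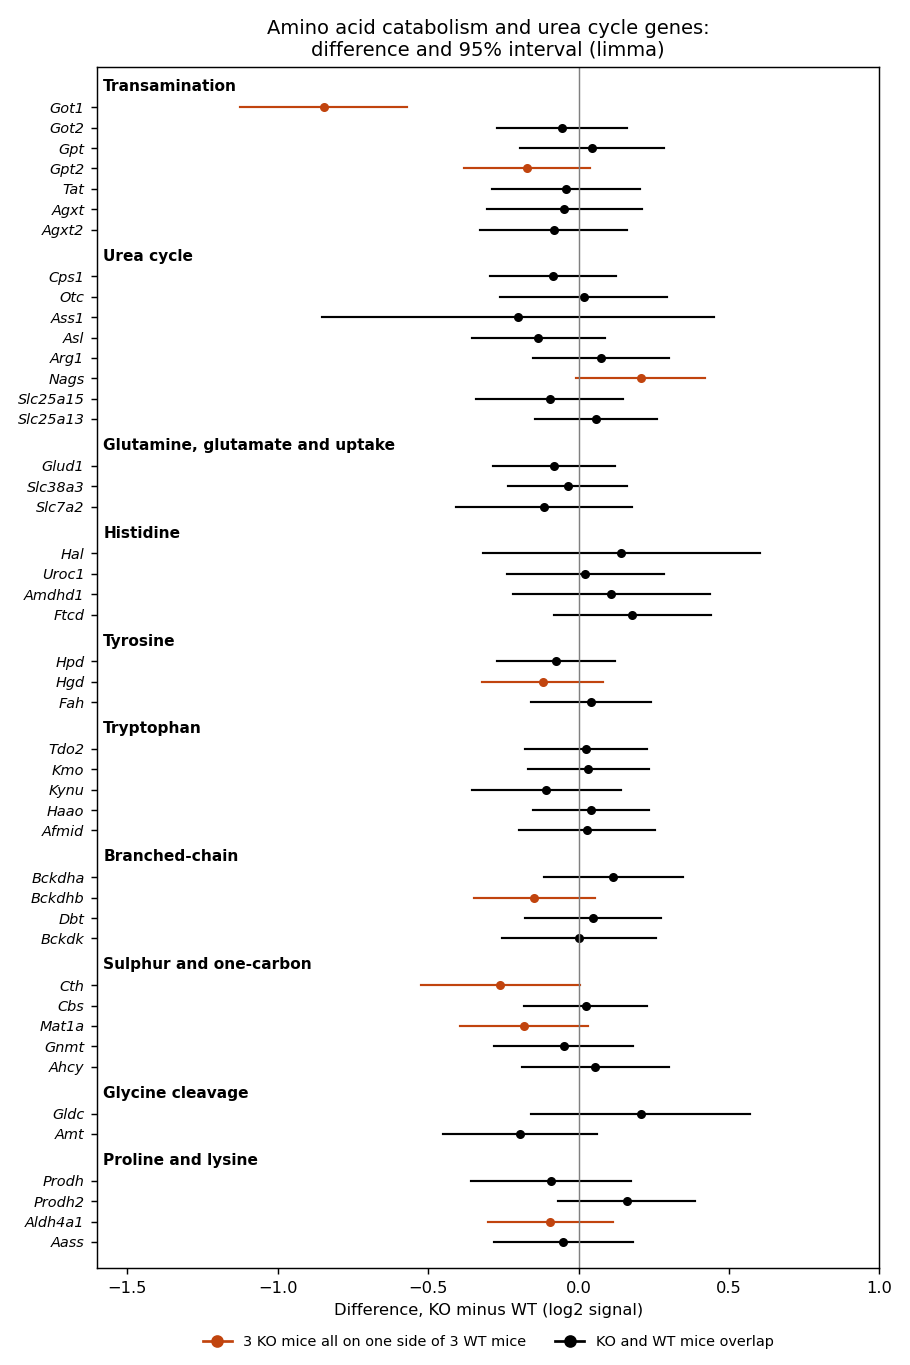
Difference in log2 signal, KO minus WT, for the 45 tested members by pathway, with 95% intervals from limma; orange marks genes in which all 3 KO mice lay on one side of all 3 WT mice. Got1, at -0.85, stands apart from the other members, which lie between -0.26 and 0.21.

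Got1 encodes the cytosolic aspartate aminotransferase, which exchanges the amino group between aspartate and glutamate and works in the malate-aspartate shuttle that carries reducing equivalents into mitochondria. Its signal was 7.13, 7.39 and 7.08 in KO mice 1 to 3, against 8.14, 8.13 and 7.88 in WT mice 1 to 3. The highest KO mouse was below the lowest WT mouse by more than the range within either group. The means were 7.20 ± 0.17 in KO and 8.05 ± 0.15 in WT livers (SD, n = 3 each). The difference of -0.85 ± 0.12 (SE) corresponds to a KO signal 0.556 times that of WT, with a 95% interval of 0.459 to 0.673. Got1 ranked 7 of 11090 by p-value and 3 among the genes lower in KO, yet its adjusted p was 0.129 in limma (unadjusted p = 8.15e-05). It did pass without WT mouse 3, at -0.93 (limma adjusted p = 0.0210), where 0.46% of all tested genes passed. It also passed with the trend and robust options of limma (adjusted p = 0.0290), where 0.0541% did. Without WT mouse 1, the mouse with the acinar markers, the difference was -0.80 (limma adjusted p = 0.439). That was the highest adjusted p of the 15 alternative fits.

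Got2, the mitochondrial form of the same enzyme, is the closest comparison. Its signal was 10.44, 10.26 and 10.35 in KO mice 1 to 3, against 10.38, 10.49 and 10.35 in WT mice 1 to 3, so the groups overlapped. The difference was -0.06 ± 0.09 (SE; limma adjusted p = 0.903), with an interval of -0.27 to 0.16. A second, much dimmer Got2 probe set averaged 4.41 ± 0.09 in KO and 4.63 ± 0.09 in WT livers (SD, n = 3 each), with all KO mice below all WT mice. Within each array, the log2 signal of Got1 minus that of Got2 was -3.31, -2.87 and -3.26 in KO mice and -2.25, -2.35 and -2.47 in WT mice. This within-array value differed by -0.79, more than its spread in either group. The exact two-sided permutation p was 0.1, the smallest that 3 mice against 3 allow, and 0.40 after adjustment over the 4 enzyme pairs compared.

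The promoters of both genes are shown because the 2 genes encode forms of 1 enzyme and only the cytosolic form stood apart. These are the 250 bases before each RefSeq start in GRCm38.p6, both on the minus strand, at chr19:43524606-43524855 for Got1 and chr8:95888402-95888651 for Got2. Capitals mark the CCAAT box, bound by the factor NF-Y, as CCAAT or, on the other strand, ATTGG.
Got1: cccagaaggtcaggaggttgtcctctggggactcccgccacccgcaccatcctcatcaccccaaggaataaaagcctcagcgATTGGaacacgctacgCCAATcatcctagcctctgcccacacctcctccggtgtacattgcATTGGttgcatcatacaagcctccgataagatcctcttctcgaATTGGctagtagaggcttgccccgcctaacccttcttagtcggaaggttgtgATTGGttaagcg
Got2: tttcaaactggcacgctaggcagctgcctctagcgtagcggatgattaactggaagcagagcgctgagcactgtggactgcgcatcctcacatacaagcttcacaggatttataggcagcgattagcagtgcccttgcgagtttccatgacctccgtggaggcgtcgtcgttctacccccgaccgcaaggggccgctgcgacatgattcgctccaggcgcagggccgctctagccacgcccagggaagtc
The Got1 window holds 5 CCAAT boxes and the Got2 window 0. At least 1 was found in 33.9% of 32841 RefSeq promoter windows of this length, and 5 or more in 0.213%. The core of the cAMP response element (TGACG), the E-box (CACGTG) and a core bound by Onecut factors (ATCAAT), searched on both strands, were in neither window and occur in 17.8%, 6.02% and 6.72% of all windows. The motif matches are a description of these letters only. GC content was 54.4% for Got1 and 59.2% for Got2, beside a median of 52.4%.

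The alanine aminotransferases, which link alanine to pyruvate, did not follow Got1. Gpt2, the mitochondrial form, was at 9.20, 9.09 and 9.01 in KO mice, against 9.26, 9.31 and 9.24 in WT mice. The 3 KO mice were the lowest of the 6, but the gap was small, and the difference was -0.17 ± 0.09 (SE; limma adjusted p = 0.611). Gpt, the cytosolic form, was at 8.21, 8.25 and 8.45 in KO mice, against 8.37, 8.17 and 8.23 in WT mice, which overlap. Its difference was 0.04 ± 0.11 (SE; limma adjusted p = 0.930). The log2 signal of Gpt minus that of Gpt2 differed by 0.22 (exact permutation p = 0.2), and by 0.098 without KO mouse 3.

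Tat, the tyrosine aminotransferase that glucocorticoids induce, was at 10.83, 10.72 and 11.00 in KO mice, against 10.93, 10.78 and 10.97 in WT mice. Its interval, -0.29 to 0.20, leaves room only for a small difference. Agxt, which detoxifies glyoxylate with alanine, was at 7.66, 7.78 and 7.83 in KO mice, against 7.99, 7.65 and 7.77 in WT mice, a difference of -0.05 ± 0.11 (SE; limma adjusted p = 0.930). Agxt2, a mitochondrial enzyme that also handles dimethylarginines, was at 8.38, 8.14 and 8.21 in KO mice, against 8.39, 8.39 and 8.20 in WT mice, a difference of -0.08 ± 0.11 (limma adjusted p = 0.858). Both overlap between the genotypes. The within-array value of Agxt minus Agxt2 differed by 0.04 (exact permutation p = 0.5). With 1 mouse left out it ran from -0.076 without WT mouse 2 to 0.15 without KO mouse 1, and it was also negative without KO mouse 2 or KO mouse 3. In all, 6 of the 7 transaminases had a negative difference, with a median of -0.06, and 0 passed.

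**Figure D2:**
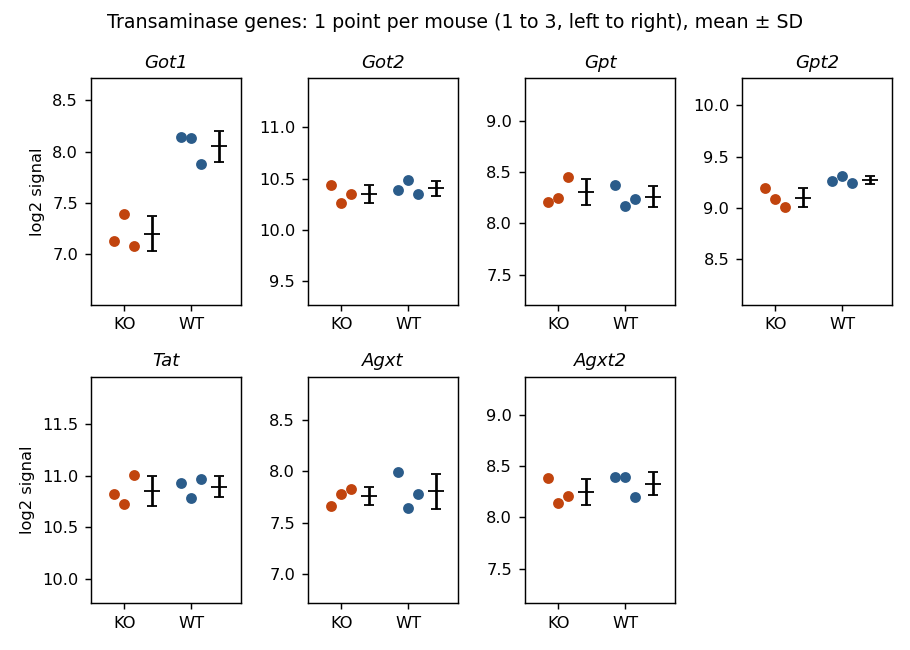
Log2 signal of the 7 transaminase genes, 1 point per mouse, KO left of WT, with mean ± SD (n = 3 each); each panel spans the same height on the log2 scale. Got1 is the panel where the 2 groups lie far apart, at 7.20 and 8.05, while Gpt2 separates by a small gap and the other 5 overlap.

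The urea cycle showed no shift as a group: 4 of its 8 genes were negative and 4 positive, the median was -0.03, and 0 passed. Cps1, carbamoyl phosphate synthetase, which commits ammonium to the cycle, was at 10.71, 10.76 and 10.87 in KO mice, against 10.92, 10.85 and 10.83 in WT mice. The groups overlap, and the difference was -0.09 ± 0.09 (SE; interval -0.29 to 0.12). Otc, which joins carbamoyl phosphate to ornithine, was at 0.02 ± 0.12. Asl, which splits argininosuccinate, was at -0.13 ± 0.10. Arg1, the arginase that releases urea, was at 0.07 ± 0.10. The intervals of these 4 genes ran from -0.36 to 0.30.

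Nags makes N-acetylglutamate, the activator that Cps1 requires. It measured 6.92, 6.96 and 7.08 in KO mice, against 6.80, 6.70 and 6.84 in WT mice. It was the only member in which every KO mouse lay above every WT mouse, a pattern found in 9.63% of all tested genes. The difference was 0.21 ± 0.09 (SE; limma adjusted p = 0.562). A second, dimmer Nags probe set overlapped, at 4.54 ± 0.14 in KO and 4.50 ± 0.21 in WT livers (SD, n = 3 each), and the mean of both probe sets differed by 0.12.

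Ass1, argininosuccinate synthase, varied more between mice than any other tested member. Its probe set was dim for a transcript known as abundant in liver, and whether it measures the whole transcript was not tested. It was at 4.65, 5.06 and 5.0 in KO mice, against 5.48, 5.48 and 4.34 in WT mice. WT mouse 3 was the lowest of all 6 and the other WT mice the highest. The difference of -0.20 ± 0.29 (SE) had an interval of -0.85 to 0.45, and the gene was at -0.58 without WT mouse 3 (limma adjusted p = 0.247) and at -0.01 without either of the other WT mice. The mitochondrial carriers of the cycle lay close to 0. Slc25a15, the ornithine carrier, was at -0.10 ± 0.11. Slc25a13, the aspartate-glutamate carrier citrin that shares the malate-aspartate shuttle with Got1, was at 0.06 ± 0.09.

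**Figure D3:**
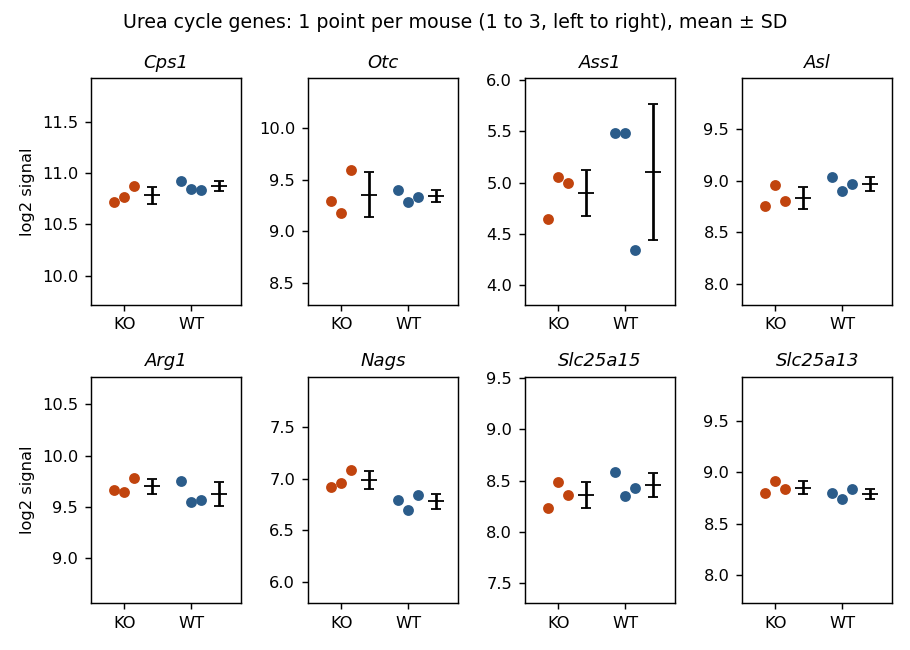
Log2 signal of the 8 urea cycle genes, 1 point per mouse, KO left of WT, with mean ± SD (n = 3 each); each panel spans the same height on the log2 scale. KO and WT overlap in all but Nags, and Ass1 has the widest WT spread because WT mouse 3 was at 4.34.

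The genes of the malate-aspartate and glycerol phosphate shuttles other than the members gave a check on the pathway that Got1 serves. All 7 were tested, 0 passed, and the differences ran from -0.09 to 0.03. Gpd1l and Gpd2, of the glycerol phosphate shuttle, and Mdh2, the mitochondrial malate dehydrogenase, had the smallest p-values in limma and were at -0.09, -0.08 and 0.03. Mdh1, the cytosolic malate dehydrogenase, was at -0.0058.

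Glutamate and glutamine handling among the members was measured through 3 genes, all slightly negative. Glud1, glutamate dehydrogenase, was at 10.27, 10.19 and 10.12 in KO mice, against 10.28, 10.30 and 10.25 in WT mice. KO mouse 1 reached the WT range, and the difference was -0.08 ± 0.09 (SE). Slc38a3, a glutamine transporter, was at -0.04 ± 0.09, and Slc7a2, which imports arginine and other cationic amino acids, at -0.12 ± 0.13.

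The genes that handle ammonium and glutamine outside the members differed more. Rhbg, an ammonium transporter of pericentral hepatocytes, was at 3.97, 3.81 and 3.76 in KO mice, against 4.94, 5.16 and 4.78 in WT mice. It fell by 1.12 ± 0.12 (SE; limma adjusted p = 0.0315), the only one of the 4 tested to pass, and all 4 were negative. It was negative in all 14 alternative fits that tested it and passed in 7. With 1 mouse left out it passed only without WT mouse 3 (limma adjusted p = 0.0051), and otherwise its adjusted p reached 0.137; it was also lost with the replicate block (adjusted p = 0.0792) and with a pseudocount of 16 (adjusted p = 0.0940). Glul, glutamine synthetase, was at 10.04, 10.08 and 9.93 in KO mice, against 10.25, 10.28 and 10.29 in WT mice, a difference of -0.26 (adjusted p = 0.437). Slc1a2, a glutamate transporter, was at -0.34 (adjusted p = 0.394), and Slc25a22, the other tested gene of this list, at -0.18. Oat, ornithine aminotransferase, which passes an amino group from ornithine to 2-oxoglutarate, was at 10.16, 10.36 and 9.88 in KO mice, against 10.77, 10.66 and 10.78 in WT mice. All KO mice lay below all WT mice, with a difference of -0.60 ± 0.13 (limma adjusted p = 0.277). Rhbg, Glul, Slc1a2 and Oat, but not Slc25a22, are in the list of pericentral genes. The 12 pericentral genes tested had a median of -0.08 with 6 negative and 6 positive, the highest being Cyp1a2 at 0.29. At an unadjusted p under 0.05 in limma, 4 of the 12 were lower and 1 higher, against 9.13% of all tested genes in either direction. The 9 periportal genes had a median of -0.04, and Hal, Ass1, Asl, Arg1 and Cps1 among them are members.

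**Figure D4:**
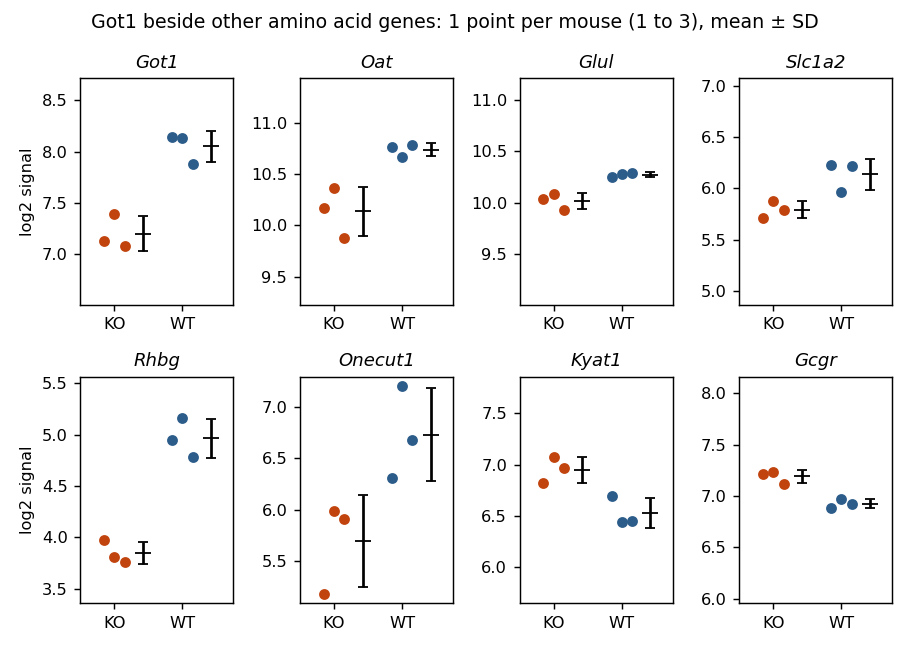
Log2 signal of Got1 and of 7 genes outside the set, 1 point per mouse, KO left of WT, with mean ± SD (n = 3 each); each panel spans the same height on the log2 scale. Oat, Glul, Slc1a2, Rhbg and Onecut1 were lower in all KO mice, and Kyat1 and Gcgr higher. These 7 genes were picked from those of smallest p-value in their lists, so their separation reflects the choice. KO and WT did not overlap in 14.8% of all tested genes. Of the 8 panels, Rhbg passed the threshold.

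Histidine catabolism did not separate the genotypes, and WT mouse 3 stood apart. Hal, histidine ammonia-lyase, the first enzyme, was at 8.87, 8.49 and 8.94 in KO mice, against 8.997, 8.68 and 8.20 in WT mice. Amdhd1, imidazolonepropionase, was at 8.32, 8.34 and 8.47 in KO mice, against 8.40, 8.47 and 7.94 in WT mice. Ftcd, the last enzyme, which hands the ring carbon to folate, was at 8.53, 8.25 and 8.39 in KO mice, against 8.34, 8.24 and 8.05 in WT mice. WT mouse 3 was the lowest of all 6 mice in each of these, and in Uroc1, urocanase, too. Averaged over the 4 genes after subtracting each gene's mean, the mice stood at 0.13, -0.09 and 0.14 in KO and at 0.11, 0.05 and -0.33 in WT. All 4 differences were positive, with a median of 0.13, and 0 passed. Without WT mouse 3, Hal, Amdhd1 and Uroc1 were at -0.07, -0.05 and -0.06, and Ftcd at 0.10.

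The aromatic amino acid enzymes varied little between mice. The median within-group SD of the 8 genes was 0.053, close to 0.057 for the 3 glutamine and glutamate genes. It was 0.14 over all tested genes, whose mean signal per mouse was 5.18 to 5.26, against 9.19 to 9.27 for the aromatic genes. The differences ran from -0.12 to 0.04 with 0 past the threshold. In tyrosine breakdown, Hgd, homogentisate dioxygenase, was at 9.52, 9.64 and 9.66 in KO mice, against 9.74, 9.71 and 9.73 in WT mice. Every KO mouse was lower, by a difference of -0.12 ± 0.09 (SE; limma adjusted p = 0.714). Hpd, the dioxygenase ahead of it, was at -0.08 ± 0.09, and Fah, the last enzyme, at 0.04 ± 0.09.

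In the kynurenine pathway of tryptophan, Tdo2, the dioxygenase that opens the ring and that glucocorticoids induce, was at 10.29, 10.29 and 10.22 in KO mice, against 10.29, 10.17 and 10.26 in WT mice. The groups overlap. Afmid, Kmo and Haao, the formamidase, hydroxylase and dioxygenase that follow, were at 0.03, 0.03 and 0.04. Kynu, kynureninase, was at -0.11 ± 0.11 (SE). Of 8 other aromatic enzymes tested, 0 passed. Their differences were positive in 7 and negative in 1, where 42.3% of all tested genes were negative. In 2 of the 8 every KO mouse lay above every WT mouse, a pattern found in 9.63% of all tested genes. Kyat1, a transaminase that acts on kynurenine and on glutamine, was at 0.42 ± 0.11 (limma adjusted p = 0.346), with every KO mouse above every WT mouse. Ido2, a dioxygenase related in function to Tdo2, was at 0.21 and Acmsd, which diverts the pathway from NAD synthesis, at 0.28.

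Branched-chain amino acids are oxidised by a dehydrogenase complex that a kinase switches off. Bckdhb, a subunit of its first component, was at 7.45, 7.50 and 7.36 in KO mice, against 7.55, 7.60 and 7.61 in WT mice. All KO mice were lower, with a difference of -0.15 ± 0.09 (SE; limma adjusted p = 0.643). Bckdha, the partner subunit, was at 0.12 ± 0.10, in the other direction. Dbt, the second component, was at 0.05 ± 0.10, and Bckdk, the kinase, at 0.0010 ± 0.11. Among 16 further branched-chain enzymes 0 passed, and their median was -0.01. Bcat2, the branched-chain transaminase, was at 0.28, Ppm1k, the phosphatase that switches the complex back on, at 0.21, and Acadsb at 0.16.

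Sulphur amino acids and one-carbon transfer held 2 members of 5 tested, Cth and Mat1a, in which every KO mouse lay below the WT mice, as in 5.16% of all tested genes. Cth, cystathionine gamma-lyase, which makes cysteine, was at 9.24, 9.39 and 9.41 in KO mice, against 9.80, 9.58 and 9.44 in WT mice. The highest KO and the lowest WT mouse nearly met, and the difference was -0.26 ± 0.12 (SE; limma adjusted p = 0.554), or -0.16 without WT mouse 1. Mat1a, which makes S-adenosylmethionine in the liver, was at 11.10, 11.15 and 10.97 in KO mice, against 11.30, 11.23 and 11.22 in WT mice. Its difference was -0.18 ± 0.09 (limma adjusted p = 0.605). These are the first and the last steps of transsulphuration from methionine.

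The enzymes between them lay near 0. Gnmt, which consumes S-adenosylmethionine by methylating glycine, was at -0.05 ± 0.10 (SE). Ahcy, which hydrolyses S-adenosylhomocysteine, was at 0.06 ± 0.11, and Cbs, which joins homocysteine to serine, at 0.02 ± 0.09. Bhmt, which remethylates homocysteine with betaine and is known as an abundant liver enzyme, had 1 probe set, at 2.90, 2.51 and 2.21 in KO mice and 2.38, 2.43 and 2.48 in WT mice. These signals lie below the filter of 2.99, so Bhmt was not tested. Among 17 further sulphur and one-carbon enzymes 0 passed and the median was -0.04. In 5 of the 17 the KO values were all under the WT values, against 5.16% of all tested genes. In 1 of the 17 they were all over the WT values, against 9.63%. Sqor, which oxidises sulphide, was at 0.24, Dmgdh, which demethylates dimethylglycine, at -0.22, and Ethe1, the next enzyme of sulphide oxidation, at -0.19.

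Glycine cleavage was measured through 2 subunits that pointed in opposite directions. Gldc, the decarboxylase, was at 7.76, 7.41 and 7.64 in KO mice, against 7.17, 7.73 and 7.28 in WT mice. The groups overlapped widely, and the difference was 0.21 ± 0.16 (SE), or 0.38 without WT mouse 2 and 0.10 without WT mouse 1. Amt, the aminomethyltransferase, was at 6.35, 6.58 and 6.33 in KO mice, against 6.47, 6.72 and 6.65 in WT mice, a difference of -0.19 ± 0.11 (limma adjusted p = 0.635). Of 5 serine, glycine and threonine genes tested besides, 0 passed. Psph, Shmt2 and Gcsh were at 0.18, 0.09 and -0.13.

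In proline breakdown, Aldh4a1, which completes the path to glutamate, was at 8.29, 8.41 and 8.43 in KO mice, against 8.43, 8.45 and 8.53 in WT mice. The groups separated only in the third decimal, with a difference of -0.09 ± 0.09 (SE; limma adjusted p = 0.791). Prodh, proline dehydrogenase, was at 7.91, 7.75 and 8.05 in KO mice, against 8.11, 7.84 and 8.05 in WT mice, a difference of -0.09 ± 0.12 (limma adjusted p = 0.854). Prodh2, the hydroxyproline dehydrogenase, was at 8.51, 8.42 and 8.27 in KO mice, against 8.33, 8.20 and 8.19 in WT mice, a difference of 0.16 ± 0.10 (limma adjusted p = 0.665). Within arrays, Prodh minus Prodh2 differed by -0.25, with overlapping mice (exact permutation p = 0.3). It was -0.16 without KO mouse 2 and -0.39 without KO mouse 3. Aass, the first enzyme of lysine breakdown in mitochondria, was at -0.05 ± 0.10. Of 9 other arginine, ornithine, proline, lysine and asparagine genes tested 0 passed, and Oat was the only one with an unadjusted p under 0.05. Aspg and Gcdh, next to Oat in p-value there, were at 0.24 and -0.10.

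Across the set, KO and WT mice did not overlap in 8 of 45 members, or 17.8%, where 14.8% of all tested genes did not overlap. Got1, Gpt2, Hgd, Bckdhb, Cth, Mat1a and Aldh4a1 were lower in every KO mouse, which makes 7 members, or 15.6%, beside 5.16% of all tested genes. The counts moved with scaling. With quantile normalization every KO mouse was lower in 8 members, or 17.8%, and in 7.54% of all genes. With median centring this held for 6 members, or 13.3%, and 4.06% of all genes. Every KO mouse was higher in 1 member and 7.74% of all genes with quantile normalization, and in 3 members and 9.83% with median centring. Apart from Got1, the differences of these genes were between -0.26 and -0.09, each with an interval that included 0.

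**Figure D5:**
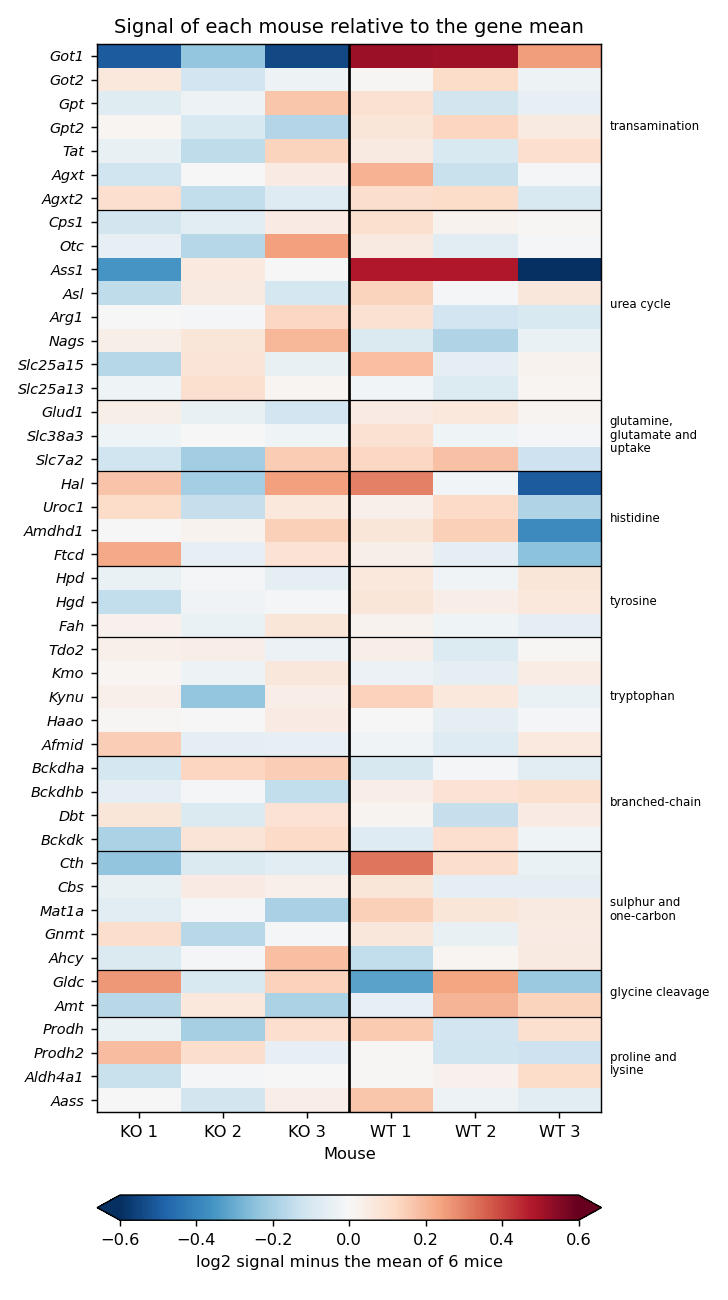
Log2 signal of each mouse minus the mean of all 6 mice for the 45 tested members, by pathway, KO columns left of WT columns; colours saturate at 0.6 from the mean. Got1 splits at the genotype line, and the dark cells of WT mouse 3 in Ass1 and Hal, with Amdhd1 and Ftcd paler, do not.

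The members varied little between mice of 1 genotype. Their median within-group SD was 0.10, beside 0.14 for all tested genes, and the largest after Ass1 were 0.33 for Hal and 0.25 for Gldc. WT mouse 1 was the highest of the 6 mice in 15 members and the lowest in 2. KO mouse 3 was the highest in 12, and WT mouse 2 was the lowest in 11. After centring each gene, the median over the members was -0.02, -0.03 and 0.04 in the KO mice and 0.06, -0.02 and -0.0065 in the WT mice.

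Transporters and regulators of amino acid use were measured beside the enzymes. Of 14 amino acid transporters, 0 passed. Slc3a1, the heavy subunit of a cystine and dibasic amino acid carrier, was at 0.57 ± 0.20 (SE) and Slc6a13, which carries taurine and related solutes, at 0.30 ± 0.13. Slc38a2, a neutral amino acid transporter, was at -0.37 ± 0.13. Their limma adjusted p-values ran from 0.437 to 0.545.

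Among 17 regulators 0 passed, and the median was 0.03. Onecut1, the hepatocyte factor HNF6, was at 5.18, 5.99 and 5.91 in KO mice, against 6.31, 7.21 and 6.68 in WT mice. All KO mice were lower, with a difference of -1.04 ± 0.26 (SE; limma adjusted p = 0.336). Gcgr, the glucagon receptor, was at 7.22, 7.23 and 7.12 in KO mice, against 6.88, 6.97 and 6.92 in WT mice, a difference of 0.26 ± 0.09 (limma adjusted p = 0.423). Creb1, a factor downstream of cAMP, was at 0.36 ± 0.13. Hnf4a, Cebpa and Nr3c1, which drive many of these genes in hepatocytes, were at 0.0032, 0.03 and 0.0046, and Klf15, a factor for amino acid catabolism in fasting, at 0.28 ± 0.15. Among 8 genes of the amino acid shortage response and 11 of gluconeogenesis and fasting 0 passed. All 11 of the gluconeogenesis and fasting genes had a negative difference, with a median of -0.20, where 42.3% of all tested genes were negative. In limma 3 of the 11 had an unadjusted p under 0.05, against 9.13% of all tested genes. In 4 of the 11 every KO mouse lay below the WT mice, a pattern found in 5.16% of all tested genes. The list was chosen with earlier results of these data known. The shortage list had 4 negative and 4 positive genes. Atf5 was at 0.44, Atf3 at -1.72 and Fgf21 at 0.69 in the first list. Nr4a1, Crem and Pck2 were at -2.42, -0.32 and -0.28 in the second. The intervals of the genes in the first list spanned -3.13 to 1.63, and those in the second -3.96 to 0.50. In the first list 0 genes had every KO mouse below every WT mouse. WT mouse 3 stood apart from the other WT mice in these lists too. It had Atf3 at 4.46 against 7.44 and 6.55, and Nr4a1 at 4.17 against 7.36 and 6.79. Averaged over the first list after subtracting each gene's mean, the KO mice were at -0.11, -0.16 and 0.05. The WT mice were at 0.24, 0.40 and -0.41. In the second list the KO mice were at -0.09, -0.37 and -0.28, and the WT mice at 0.31, 0.60 and -0.18. The part of WT mouse 3 in the values of Got1, Ass1 and the histidine enzymes was not tested beyond leaving it out.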

How the data were processed

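The authors deposited 1 table of log2 signals with 41345 probe sets, 1 column per mouse. The methods of summary and normalization were not given in the sources used here, and the log2 scale was read from the maxima of 12.1 to 12.2, above the natural log of a 16-bit reading, 11.1. Trizol was used for total RNA and the target was biotinylated cRNA, per the labels' protocols. Genes were named from the platform annotation, updated by Entrez number to GRCm38.p6. The 1814 probe sets naming several genes and the 16010 naming none were not used.

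Genes in the upper 50% of mean signal (log2 of at least 2.99) were compared with limma 3.58.1 in R 4.3.3 (lmFit, eBayes, two-sided, no covariate), with Benjamini-Hochberg adjustment over all 11090. The fit was run on simulated data with independent noise for each gene, where the sign of the added differences was checked. Effects shared by many genes of 1 mouse were not simulated. The median SE was 0.11. The number of arrays limits precision. Separate mice are the replicates, per the labels. Alternatives were other signal filters, normalizations, probe set means, limma options, array weights, a pseudocount, a replicate block and leaving out each mouse. Enzyme pairs were compared by exact permutation (scipy 1.17.1).

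Members and lists were chosen with earlier results of these data known. Members with an unadjusted p under 0.05 or with no overlap between genotypes, and their paired enzymes, were given in full, and up to 3 genes of smallest p per other list were named. Mdh1, Hnf4a, Cebpa, Nr3c1 and Klf15, and the per-mouse values of members that overlap, fall outside that rule and were chosen after their values were seen.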

Additional observations from a re-analysis of the deposited data

How the results depend on the processing

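Of the 15 alternative fits, 13 left 0 members past the adjusted threshold. The other 2, leaving out WT mouse 3 and using limma's trend and robust settings, each let 1 member pass, Got1. Its difference ran from -0.94 to -0.78 and its adjusted p from 0.0210 to 0.439 over all 15. With a mouse left out, members at an unadjusted p under 0.05 numbered 1 to 3 and those called 0 to 1; genes called over the whole array numbered 1 to 51, beside 4 with all mice, and 51 came without WT mouse 3. Over these 6 fits 6.95% to 9.22% of all genes had an unadjusted p under 0.05. The unadjusted count was 3 with no filter and 3 with the upper 25% of signal, 2 with quantile normalization, 5 with trend and robust options, and 6 with a pseudocount of 16 on the linear scale; the cause was not tested. Of all genes tested in these 5 fits, 7.48%, 10.2%, 9.61%, 9.02% and 9.68%, in that order, had an unadjusted p under 0.05. Genes called over the array were 0 in the upper 25% of signal, where limma gave 567 at an unadjusted p under 0.05, and 1 with the pseudocount. With mouse number as a replicate block 1 gene was called and 0 members. Deviations of same-numbered mice from their group means correlated at 0.06, -0.19 and 0.15. With 3 mice per group these deviations sum to 0 for each gene. The correlations therefore cannot decide whether same-numbered mice were paired. Gpt, with a mouse left out, ran from -0.029, a reversal without KO mouse 3, to 0.10; the cause was not tested. Got2, Gpt2, Nags, Hgd, Bckdhb, Cth, Mat1a and Aldh4a1 kept their sign in all 15 fits, and Got1 minus Got2 stayed between -0.93 and -0.71. Array number limits the detectable size: the median interval half-width of the members was 0.23.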
